A study of Mus musculus with 16 samples.

Results

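The genes described are those that carry glucose into the cell, split it to pyruvate and lactate, and store or release it as glycogen. They were chosen by name from the textbook pathway, with earlier results of these data known. Of 39 genes in all, 35 were matched to a named probe set among the 19505 genes tested. Gpi1, Pfkfb1, Pfkfb2 and Eno1 were not analysed here. Hearts came from wild-type male C57BL/6 mice aged 10 weeks. In 3 groups the left anterior descending coronary artery was closed with a ligature for 30 min and then reopened for 6, 24 or 72 h; this artery supplies much of the left ventricle. The fourth group had sham surgery, with no sham time given in the labels, so each reperfusion time was set against the same 4 sham hearts. Each group held 4 hearts with 1 Affymetrix array per heart, 16 arrays in all. RNA came from hearts, with no separation of the injured zone from the rest given in the labels, and no genetic change is named for any group.

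Glucose enters heart muscle through the insulin-responsive transporter Slc2a4 (GLUT4) and the more widely used Slc2a1 (GLUT1). Hexokinase traps it inside the cell, phosphofructokinase sets the pace of its breakdown, and the later enzymes yield pyruvate, which lactate dehydrogenase converts to lactate for export by monocarboxylate transporters. Glycogen is built by glycogen synthase and the branching enzyme and is released by glycogen phosphorylase, which phosphorylase kinase switches on, while targeting subunits bring protein phosphatase 1 to the glycogen particle to reverse that switch. The adult heart lives mostly on fatty acids but raises its use of glucose under ischemia, and many steps exist as a muscle form and as a form used by other tissues.

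All levels are log2 signals as the authors deposited them, and a difference of 1 on this scale is a 2-fold difference on the authors' scale. Array medians lay between 5.84 and 5.95, and a signal under 6.76, the 75th percentile among negative controls, was taken as near background. Of the 35 genes, 30 had a mean above it. Cardiomyocyte markers (12 genes) averaged 17.54 to 17.61 per array in 6 h hearts, 17.18 to 17.45 in 24 h hearts and 17.28 to 17.47 in 72 h hearts, against 17.62 to 17.68 in sham hearts. The 11 neutrophil markers averaged 6.50 to 8.23, 5.36 to 8.16 and 4.70 to 6.00 at the 3 times, against 4.09 to 4.42 in sham hearts. For the 11 monocyte and macrophage markers the values were 8.15 to 8.64, 9.50 to 11.35 and 9.70 to 10.73, against 7.16 to 7.28 in sham hearts, and for the 8 fibroblast markers 10.13 to 10.79, 10.93 to 11.72 and 13.57 to 14.15, against 10.73 to 11.06. In the limma fit, 8, 9 and 2 neutrophil markers, 6, 10 and 10 monocyte and macrophage markers and 0, 4 and 8 fibroblast markers were higher than sham at 6, 24 and 72 h, and 0, 6 and 5 cardiomyocyte markers were lower. In the other direction, 2 fibroblast markers were lower at 6 h and 1 at 24 h, and 1 cardiomyocyte marker, Csrp3, was higher at 24 h. The 24 h array of replicate 16 averaged 11.06 over 6 atrial markers, against 7.36 to 7.47 on the other 24 h arrays, and the 24 h array of replicate 17 had the lowest neutrophil (5.36) and macrophage (9.50) means of its group. The 8 skeletal muscle markers averaged 4.07 to 4.47 per array over all groups, below background. Of them, 1 was higher and 1 lower than sham at 24 h, and likewise at 72 h. In bulk RNA from hearts, fewer cells of a type and less RNA per cell cannot be told apart, and the part of the incoming cells in the changes below was not tested.

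At 24 h, 22 of the 35 genes differed from sham, 8 higher and 14 lower, where 26.1% of all genes differed. At 6 h, 13 differed, 4 higher and 9 lower, with 20.2% of all genes, and at 72 h, 13 differed, 2 higher and 11 lower, with 21.8%. Calls were made with limma at an adjusted p below 0.05 over all 19505 genes. By direction, among all genes, 7.92%, 13.8% and 11.5% were higher at 6, 24 and 72 h, and 12.3%, 12.3% and 10.3% were lower. A fairer match for these mostly bright genes is the 8383 genes with a mean at or above the negative control level, of which 13.8%, 24.2% and 18.1% were higher and 22.4%, 20.8% and 16.9% lower. The median change of the 35 genes was -0.11, -0.17 and -0.32 at 6, 24 and 72 h, against -0.04, -0.07 and -0.09 over all genes. Slc16a3, which exports lactate from cells that make much of it, was the 1 gene above sham at all 3 times. Slc2a4, Pfkl, Pgam2, Gys1 and Ppp1r3b were below sham at all 3. Aldoa, Aldoc, Tpi1, Pkm, Ldha, Gbe1, Ppp1r3c, Slc2a3 and Hk3 passed the threshold at none of them. Centred on the hybridization spike-ins, the 24 h calls of Pfkl, Eno3, Ugp2 and Pygm and the 72 h calls of Slc2a4, Hk1, Hk2, Pfkl, Phkg1 and Ppp1r3d were lost. Centred on the poly-A spike-ins, the 24 h calls of Hk1 and Pgk1 and the 72 h calls of Slc2a4, Hk1, Hk2, Pfkl and Phkg1 were lost. The Hk1 and Pgk1 calls at 24 h were also lost with median centring and without 24 h replicates 16 and 17, the Pgam2 call at 6 h with median centring and quantile normalization, and the Pfkl call at 6 h with quantile normalization and in a fit of 2 groups. Where hearts of 2 groups are said below not to overlap, 9.06%, 12.9% and 12.7% of all genes had every heart above sham at 6, 24 and 72 h, and 13.7%, 13.0% and 14.4% every heart below it.

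**Figure D1:**
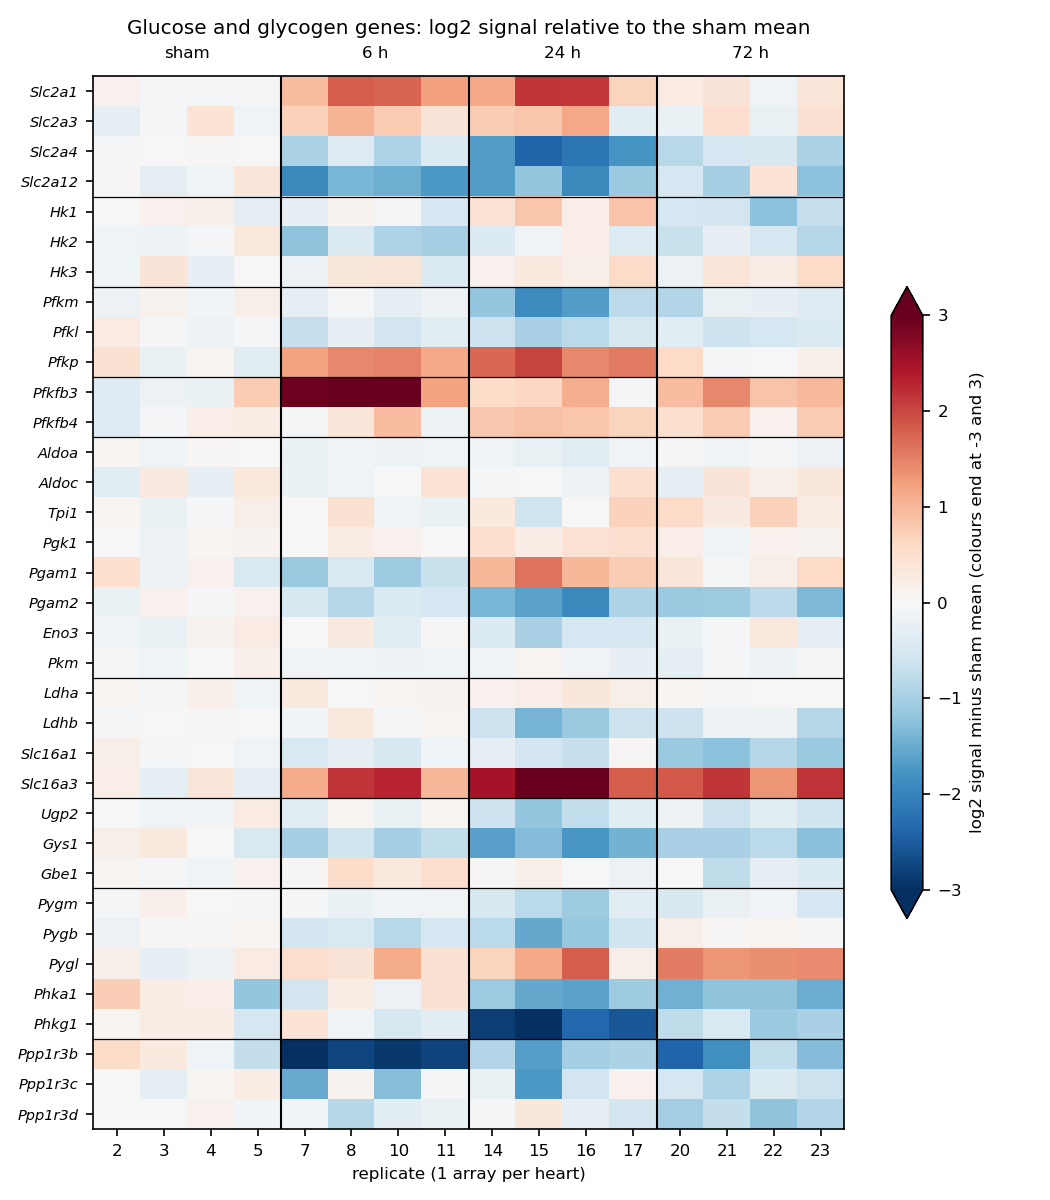
Each row is 1 of the 35 genes, ordered by role, and each column 1 of the 16 arrays; colour gives the log2 signal minus the sham mean of that gene, and colours end at -3 and 3. Pfkfb3 stands out as high in 6 h hearts, Slc16a3 is high at all 3 times, and Slc2a4, Phkg1 and Pfkm are lowest in 24 h hearts.

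**Figure D2:**
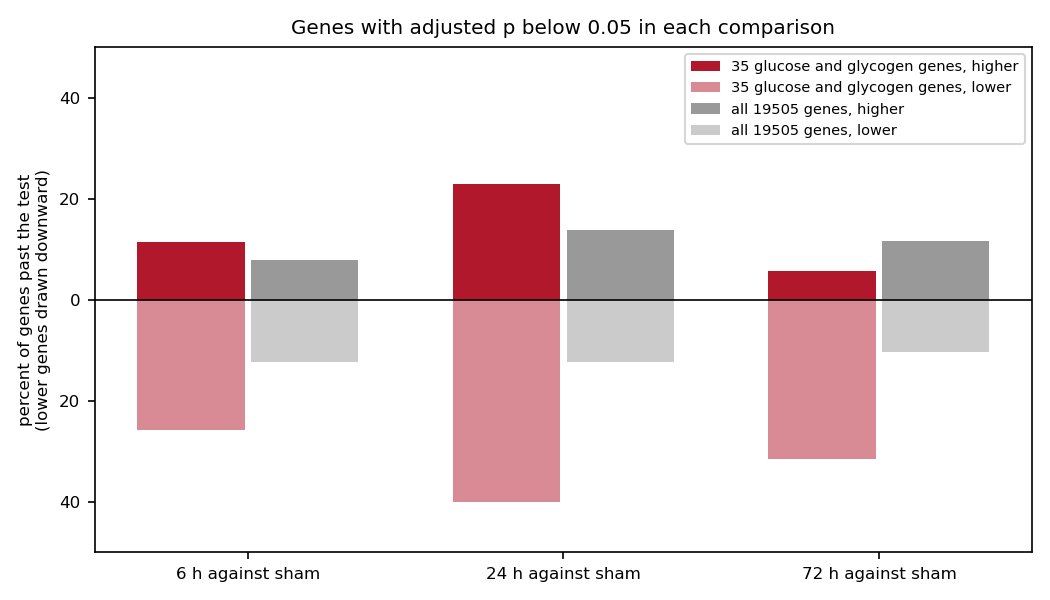
Bars give the percent of genes past the threshold against sham at each time, higher and lower apart, for the 35 genes and for all 19505 genes tested. At 24 h, 14 of the 35 genes were lower, beside 12.3% of all genes. Of the 8383 genes at or above the negative control level, not drawn here, 20.8% were lower.

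The 250 bases before the gene start are shown for Slc16a3 and Pfkfb3, which had the largest rises, and Phkg1 and Slc2a12, which had the largest falls in deposited signal among genes with an entry, since hypoxia-inducible factors and the related bHLH factors bind sites built on the letters ACGTG. Capitals mark ACGTG read on either strand. Slc16a3 lies at chr11:120948817-120949066 on the plus strand with 2 matches, 27 and 14 bases before the start. Pfkfb3 lies at chr2:11553930-11554179 on the minus strand with 1 match, 60 bases before it. Pfkfb3 has 2 windows in the table, of which the one farthest upstream is shown, and the other holds 1 match, within CACGTG. Phkg1 (chr5:129879089-129879338, minus strand) and Slc2a12 (chr10:22644761-22645010, plus strand) have 0 matches in the window. Slc2a12 was below background in every group and Phkg1 at 24 h, so the size of their falls and their rank are uncertain.
Slc16a3: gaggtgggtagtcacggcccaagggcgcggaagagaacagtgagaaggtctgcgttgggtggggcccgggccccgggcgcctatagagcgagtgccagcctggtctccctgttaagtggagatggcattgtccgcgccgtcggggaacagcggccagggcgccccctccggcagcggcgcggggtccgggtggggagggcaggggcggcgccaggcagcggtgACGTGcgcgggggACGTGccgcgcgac
Pfkfb3: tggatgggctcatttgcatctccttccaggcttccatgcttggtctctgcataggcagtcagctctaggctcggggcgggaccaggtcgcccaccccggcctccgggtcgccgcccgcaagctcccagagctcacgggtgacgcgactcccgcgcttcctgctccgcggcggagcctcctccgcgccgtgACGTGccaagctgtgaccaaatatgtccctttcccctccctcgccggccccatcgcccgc
Phkg1: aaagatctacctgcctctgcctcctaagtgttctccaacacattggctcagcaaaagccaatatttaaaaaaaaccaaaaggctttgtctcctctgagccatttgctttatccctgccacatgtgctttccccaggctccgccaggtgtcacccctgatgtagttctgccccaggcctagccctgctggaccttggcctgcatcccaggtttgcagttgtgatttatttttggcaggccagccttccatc
Slc2a12: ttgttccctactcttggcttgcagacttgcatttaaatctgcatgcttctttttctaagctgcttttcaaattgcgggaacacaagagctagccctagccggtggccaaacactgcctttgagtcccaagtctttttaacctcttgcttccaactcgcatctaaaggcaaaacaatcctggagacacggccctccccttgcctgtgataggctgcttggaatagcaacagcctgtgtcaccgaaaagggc
These sequences and coordinates are from RefSeq on GRCm38.p6. Of the 35 genes, 32 had an entry, with 43 windows because some have several starts. ACGTG stood in 21 of the 43 windows, 48.8%, against 16.6% of all 32851 windows of the same length in the table. The longer CACGTG, which holds ACGTG, stood in 6 of the 43 windows, and in 6.02% of all. By gene, 18 of the 32 had ACGTG in at least 1 window. These were 5 of the 7 genes that were only ever higher than sham, 7 of the 15 that were only ever lower, 1 of the 2 that went both ways and 5 of the 8 never called. No share by gene was counted over all genes, and a gene with several windows has more chances of a match. The 16.6% is a share of windows and is not a background for the counts by gene. A match describes letters in a window and is not a measured binding site.

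Of the 4 glucose transporters, Slc2a1 rose at 6 and 24 h, Slc2a4 fell at all 3 times and Slc2a12 fell at 6 and 24 h. Slc2a1, the transporter found in most tissues, had log2 signals of 11.59, 11.41, 11.43 and 11.43 in sham hearts, 12.39, 13.27, 13.21 and 12.70 in 6 h hearts, 12.61, 13.60, 13.58 and 12.14 in 24 h hearts and 11.71, 11.84, 11.37 and 11.82 in 72 h hearts. All 6 h and 24 h hearts lay above all sham hearts, and the 72 h values overlapped sham. Slc2a1 rose by 1.43 ± 0.27 (adjusted p = 0.000618) at 6 h and rose by 1.52 ± 0.27 (adjusted p = 0.000278) at 24 h, and the 72 h difference was 0.22 ± 0.27 (adjusted p = 0.611). Slc2a4, the muscle and fat transporter that insulin brings to the cell surface, had 11.94, 12.00, 12.03 and 11.99 in sham hearts, 11.03, 11.61, 11.06 and 11.57 in 6 h hearts, 10.32, 9.59, 9.82 and 10.21 in 24 h hearts and 11.16, 11.48, 11.51 and 11.03 in 72 h hearts. Its 24 h values were the lowest of the 4 groups, and at every time the hearts lay below the sham hearts. Slc2a4 fell by 0.67 ± 0.18 (adjusted p = 0.0115) at 6 h, fell by 2.01 ± 0.18 (adjusted p = 2.39e-07) at 24 h and fell by 0.70 ± 0.18 (adjusted p = 0.0092) at 72 h. Between 24 and 72 h Slc2a4 rose by 1.31 ± 0.18 (adjusted p = 6.83e-05), while Slc2a1 fell by 1.29 ± 0.27 (adjusted p = 0.00259). Slc2a12, a further sugar transporter of muscle and fat, had 5.34, 5.02, 5.16 and 5.66 in sham hearts, 3.35, 3.93, 3.83 and 3.58 in 6 h hearts, 3.63, 4.13, 3.36 and 4.18 in 24 h hearts and 4.79, 4.29, 5.71 and 4.06 in 72 h hearts. Those signals had group means below the background level in every group. Slc2a12 fell by 1.62 ± 0.28 (adjusted p = 0.000271) at 6 h and fell by 1.47 ± 0.28 (adjusted p = 0.000531) at 24 h, and at 72 h it differed by -0.58 ± 0.28 (adjusted p = 0.154), or by -0.91, adjusted p = 0.00793, without the 72 h array of replicate 22. Slc2a3, the high-affinity transporter of neurons and white blood cells, was near background in all groups and differed by 0.72 ± 0.26 (adjusted p = 0.0607), 0.61 ± 0.26 (adjusted p = 0.0963) and 0.13 ± 0.26 (adjusted p = 0.77) at 6, 24 and 72 h. Without the 24 h array of replicate 17, the Slc2a3 difference at 24 h was 0.92, adjusted p = 0.00321. At 6 h it passed the threshold without the sham array of replicate 4 (0.85, adjusted p = 0.0427) or the 6 h array of replicate 11 (0.83, adjusted p = 0.0463). With arrays centred on the hybridization spike-ins, the Slc2a4 difference at 72 h was -0.20, adjusted p = 0.388.

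**Figure D3:**
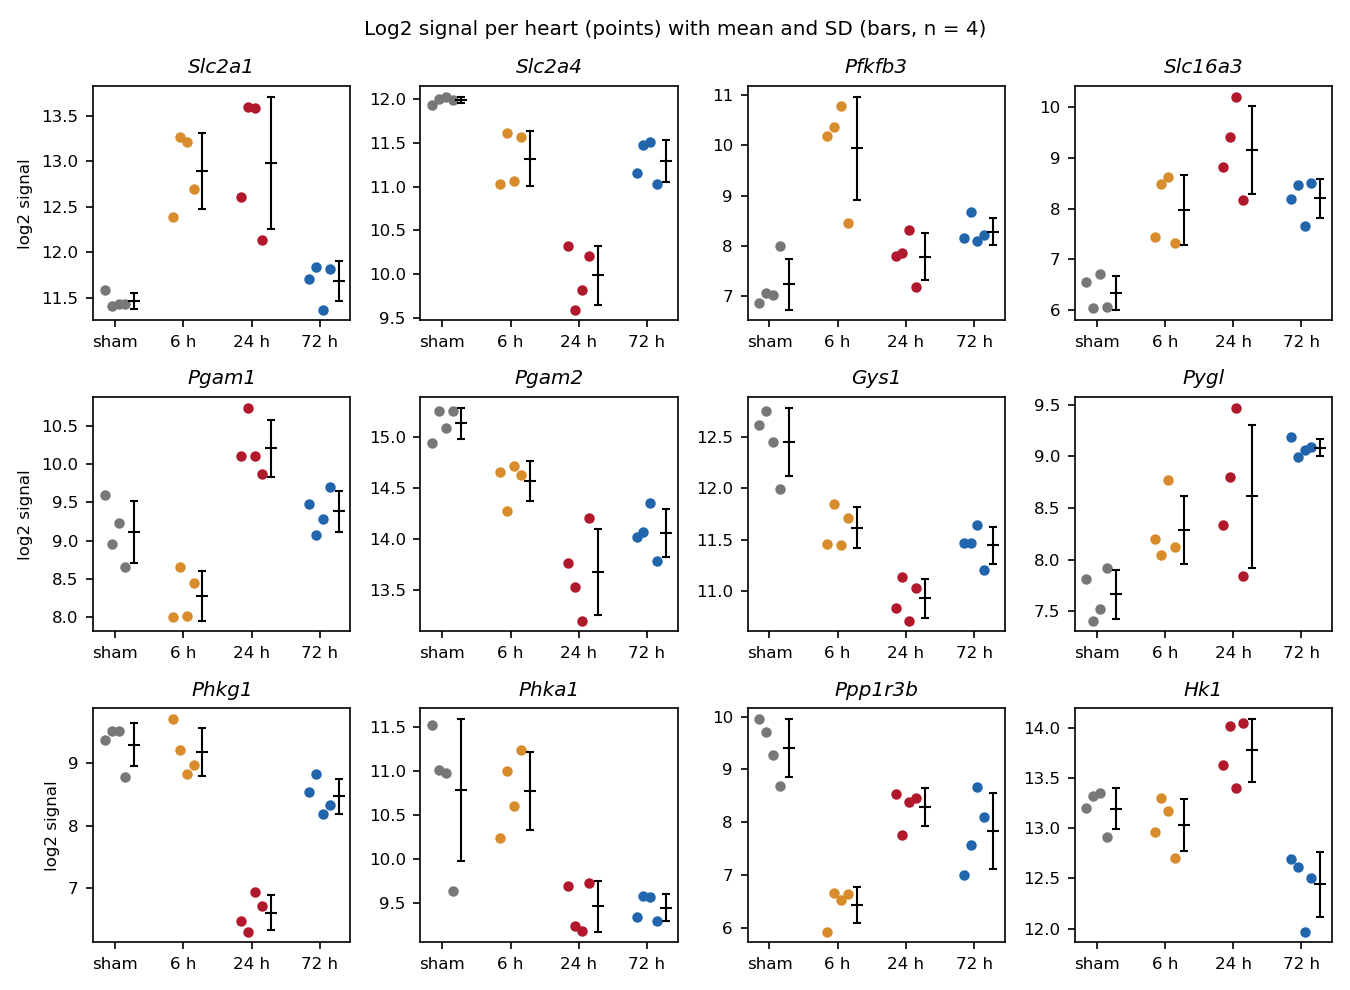
Points give the log2 signal on each of the 4 arrays in sham, 6 h, 24 h and 72 h hearts for 12 of the genes, and the bars beside them give the mean and SD of 4 arrays; each panel has its own scale. Slc2a1 lies above sham and Slc2a4 below it at 24 h, Pfkfb3 is high at 6 h, Phkg1 is low at 24 h, and Slc16a3 is still above sham at 72 h.

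At the early steps, the measured hexokinases differed from sham by less than 1 on the log2 scale, while Pfkp rose and Pfkm and Pfkl fell. Hk1, the hexokinase of most tissues, averaged 13.03 ± 0.26 in 6 h hearts, 13.78 ± 0.31 in 24 h hearts and 12.45 ± 0.32 in 72 h hearts, against 13.19 ± 0.20 in sham hearts (SD, n = 4 each). Hk1 rose by 0.58 ± 0.19 (adjusted p = 0.0289) at 24 h and fell by 0.75 ± 0.19 (adjusted p = 0.00771) at 72 h, with -0.16 ± 0.19 (adjusted p = 0.659) at 6 h. Hk2, the insulin-responsive form of muscle, fell by 0.89 ± 0.19 (adjusted p = 0.00177) at 6 h and fell by 0.58 ± 0.19 (adjusted p = 0.0341) at 72 h, with -0.17 ± 0.19 (adjusted p = 0.557) at 24 h. Hk3, a form of white blood cells, was near background and differed from sham by 0.02 ± 0.20, 0.29 ± 0.20 and 0.24 ± 0.20 at the 3 times. The 24 h call of Hk1 was lost without the sham array of replicate 2 (adjusted p = 0.0551) or 5 (0.0918) or the 24 h array of replicate 15 (0.0958) or 17 (0.079). That of Hk2 at 72 h was lost without sham replicate 4 (0.0573) or 5 (0.107) or 72 h replicate 20 (0.0849), 22 (0.0527) or 23 (0.114).

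Phosphofructokinase is built from muscle (Pfkm), liver (Pfkl) and platelet (Pfkp) subunits. Pfkm had log2 signals of 14.99, 15.27, 15.09 and 15.35 in sham hearts, 14.89, 15.14, 14.88 and 15.02 in 6 h hearts, 14.02, 13.28, 13.50 and 14.40 in 24 h hearts and 14.29, 14.96, 14.92 and 14.79 in 72 h hearts. The 24 h and 72 h hearts lay below all sham hearts, and the 6 h hearts overlapped them. Pfkm fell by 1.38 ± 0.21 (adjusted p = 5.34e-05) at 24 h, with -0.19 ± 0.21 (adjusted p = 0.613) at 6 h and -0.44 ± 0.21 (adjusted p = 0.147) at 72 h. Pfkp had 12.89, 12.23, 12.50 and 12.08 in sham hearts, 13.63, 13.87, 13.92 and 13.56 in 6 h hearts, 14.15, 14.45, 13.87 and 13.98 in 24 h hearts and 13.03, 12.36, 12.44 and 12.57 in 72 h hearts. All 6 h and 24 h hearts were above all sham hearts, while 72 h hearts overlapped them. Pfkp rose by 1.32 ± 0.19 (adjusted p = 4.02e-05) at 6 h and rose by 1.69 ± 0.19 (adjusted p = 2.59e-06) at 24 h, and then fell by 1.51 ± 0.19 (adjusted p = 2.28e-05) between 24 and 72 h. Pfkl fell by 0.47 ± 0.15 (adjusted p = 0.0291) at 6 h, fell by 0.73 ± 0.15 (adjusted p = 0.001) at 24 h and fell by 0.47 ± 0.15 (adjusted p = 0.0286) at 72 h. The Pfkl call at 6 h was lost without sham replicate 2 (adjusted p = 0.104) or 6 h replicate 7 (0.0989) or 10 (0.0788), and the call at 72 h without sham replicate 2 (0.0999) or 72 h replicate 21 (0.0852), 22 (0.0604) or 23 (0.0504). Centred on the hybridization spike-ins, the 72 h difference of Pfkl turned to 0.03, adjusted p = 0.911.

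The bifunctional PFK-2/FBPase-2 enzymes set the level of fructose 2,6-bisphosphate, the strongest activator of phosphofructokinase. Pfkfb3, the form with the highest kinase activity, had 6.86, 7.07, 7.03 and 7.99 in sham hearts, 10.18, 10.36, 10.78 and 8.45 in 6 h hearts, 7.79, 7.85, 8.32 and 7.18 in 24 h hearts and 8.16, 8.67, 8.10 and 8.21 in 72 h hearts. Every 6 h and 72 h heart lay above every sham heart, and the 24 h hearts overlapped them. Pfkfb3 rose by 2.71 ± 0.37 (adjusted p = 2.33e-05) at 6 h, the largest rise of any of the 35 genes at that time, and then fell by 2.16 ± 0.37 (adjusted p = 0.000211) between 6 and 24 h. At 24 h it differed from sham by 0.55 ± 0.37 (adjusted p = 0.314) and at 72 h by 1.05 ± 0.37 (adjusted p = 0.0506), or by 1.30, adjusted p = 0.0212, without the sham array of replicate 5, and it was past the threshold under 7 alternatives in all. Pfkfb4, a form first described in testis, lay below background in every group and rose by 0.80 ± 0.21 (adjusted p = 0.00787) at 24 h. At 72 h the difference of Pfkfb4 was 0.54 ± 0.21 (adjusted p = 0.0794), or 0.67, adjusted p = 0.0374, without 72 h replicate 22.

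From aldolase to pyruvate kinase, 8 genes were measured, and the phosphoglycerate mutases were the ones that moved most. Pgam1, the mutase of most tissues, had 9.60, 8.95, 9.23 and 8.65 in sham hearts, 8.00, 8.65, 8.01 and 8.44 in 6 h hearts, 10.11, 10.74, 10.11 and 9.87 in 24 h hearts and 9.48, 9.07, 9.28 and 9.70 in 72 h hearts. The highest 6 h value lay just under the lowest sham value, and all 24 h values lay above all sham values. Pgam1 fell by 0.83 ± 0.22 (adjusted p = 0.0105) at 6 h and rose by 1.10 ± 0.22 (adjusted p = 0.000922) at 24 h, with 0.27 ± 0.22 (adjusted p = 0.42) at 72 h. Pgam2, the muscle mutase, had 14.94, 15.26, 15.09 and 15.26 in sham hearts, 14.66, 14.28, 14.72 and 14.63 in 6 h hearts, 13.77, 13.53, 13.20 and 14.21 in 24 h hearts and 14.02, 14.07, 14.36 and 13.79 in 72 h hearts. At all 3 times the hearts lay below all sham hearts. Pgam2 fell by 0.56 ± 0.19 (adjusted p = 0.04) at 6 h, fell by 1.46 ± 0.19 (adjusted p = 1.11e-05) at 24 h and fell by 1.08 ± 0.19 (adjusted p = 0.000321) at 72 h. The 6 h call of Pgam2 was lost without any 1 of 6 arrays, sham replicates 3, 4 and 5 and 6 h replicates 7, 8 and 11, with adjusted p between 0.0585 and 0.121.

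The other 6 genes of these steps changed less. Pgk1, phosphoglycerate kinase, rose by 0.42 ± 0.13 (adjusted p = 0.0203) at 24 h. Eno3, the muscle enolase, fell by 0.61 ± 0.18 (adjusted p = 0.0146) at 24 h. Those calls were lost for Pgk1 without sham replicate 3 (adjusted p = 0.0679) or 24 h replicate 14 (0.0562), and for Eno3 without 24 h replicate 15 (0.0632). Aldoa, the muscle aldolase, averaged 17.51 ± 0.05, 17.45 ± 0.10 and 17.55 ± 0.05 in 6, 24 and 72 h hearts, against 17.65 ± 0.08 in sham hearts (SD, n = 4 each). Pkm, pyruvate kinase, averaged 15.97 ± 0.02, 16.01 ± 0.13 and 15.98 ± 0.14, against 16.10 ± 0.11. Tpi1, triose phosphate isomerase, averaged 13.58 ± 0.30, 13.65 ± 0.54 and 13.99 ± 0.23, against 13.56 ± 0.15. None of Aldoa, Pkm and Tpi1 passed the threshold against sham. Their differences lay between -0.19 for Aldoa at 24 h and 0.43 for Tpi1 at 72 h. Aldoc, the brain aldolase, was below background.

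Lactate genes split by form. Slc16a3 (MCT4), the exporter of glycolytic cells, had 6.54, 6.04, 6.70 and 6.06 in sham hearts, 7.44, 8.49, 8.63 and 7.32 in 6 h hearts, 8.82, 9.41, 10.21 and 8.16 in 24 h hearts and 8.18, 8.47, 7.66 and 8.50 in 72 h hearts. Sham means were below background, and every reperfused heart at 6, 24 and 72 h lay above every sham heart. Slc16a3 rose by 1.64 ± 0.36 (adjusted p = 0.00253) at 6 h, rose by 2.81 ± 0.36 (adjusted p = 1.04e-05) at 24 h and rose by 1.87 ± 0.36 (adjusted p = 0.000803) at 72 h. Slc16a1 (MCT1), which takes lactate into heart muscle, had 15.20, 14.98, 15.02 and 14.93 in sham hearts, 14.58, 14.73, 14.55 and 14.91 in 6 h hearts, 14.73, 14.45, 14.34 and 15.06 in 24 h hearts and 13.93, 13.80, 14.18 and 13.92 in 72 h hearts. The 6 h and 72 h hearts lay below all sham hearts, the 72 h hearts lowest. Slc16a1 fell by 1.07 ± 0.16 (adjusted p = 5.68e-05) at 72 h, with -0.34 ± 0.16 (adjusted p = 0.161) at 6 h and -0.38 ± 0.16 (adjusted p = 0.0828) at 24 h. Without 24 h replicate 17, the array with the lowest neutrophil and macrophage means of its group, the Slc16a1 difference at 24 h was -0.52, adjusted p = 0.0136.

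Ldhb, the heart form of lactate dehydrogenase, fell by 0.94 ± 0.19 (adjusted p = 0.000786) at 24 h, with 0.06 ± 0.19 (adjusted p = 0.894) at 6 h and -0.46 ± 0.19 (adjusted p = 0.0913) at 72 h. Ldha, the skeletal muscle form, differed by 0.12 ± 0.12 (adjusted p = 0.577), 0.21 ± 0.12 (adjusted p = 0.239) and 0.00 ± 0.12 (adjusted p = 0.999) at the 3 times. Ldhb averaged 14.08 ± 0.38 in 24 h hearts, against 15.02 ± 0.04 in sham hearts, and Ldha 16.43 ± 0.09 against 16.22 ± 0.12 (SD, n = 4 each). The monocyte and macrophage markers were higher at the same times as Slc16a3, 6, 10 and 10 of 11. Neutrophil markers were too, 8, 9 and 2 of 11, and the part of either set in the rise of Slc16a3 was not tested.

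Among the genes that build glycogen, Gys1 was below sham throughout. Gys1, muscle glycogen synthase, had 12.62, 12.75, 12.45 and 11.99 in sham hearts, 11.46, 11.85, 11.45 and 11.71 in 6 h hearts, 10.83, 11.14, 10.71 and 11.03 in 24 h hearts and 11.47, 11.47, 11.64 and 11.20 in 72 h hearts. At every time all hearts lay below all sham hearts. Gys1 fell by 0.83 ± 0.17 (adjusted p = 0.00136) at 6 h, fell by 1.53 ± 0.17 (adjusted p = 2.32e-06) at 24 h and fell by 1.01 ± 0.17 (adjusted p = 0.000228) at 72 h. Ugp2, which makes the UDP-glucose that the synthase uses, fell by 0.71 ± 0.17 (adjusted p = 0.00459) at 24 h, with -0.09 ± 0.17 (adjusted p = 0.798) at 6 h and -0.43 ± 0.17 (adjusted p = 0.0847) at 72 h. Gbe1, the branching enzyme, differed by 0.36 ± 0.16 (adjusted p = 0.145), 0.01 ± 0.16 (adjusted p = 0.971) and -0.37 ± 0.16 (adjusted p = 0.122). Without 72 h replicate 20, Gbe1 at 72 h gave -0.49, adjusted p = 0.0488.

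The glycogen-targeting subunits of protein phosphatase 1 bring it to the synthase, which it activates. Ppp1r3b, the subunit of liver and muscle known as GL, had 9.96, 9.70, 9.28 and 8.69 in sham hearts, 5.92, 6.65, 6.52 and 6.63 in 6 h hearts, 8.54, 7.75, 8.39 and 8.46 in 24 h hearts and 7.0, 7.56, 8.66 and 8.10 in 72 h hearts. Its 6 h mean was below background, and every reperfused heart lay below every sham heart. Ppp1r3b fell by 2.97 ± 0.31 (adjusted p = 8.67e-07) at 6 h, the largest fall among the 35 genes, fell by 1.12 ± 0.31 (adjusted p = 0.0105) at 24 h and fell by 1.58 ± 0.31 (adjusted p = 0.00094) at 72 h. Between 6 and 24 h it rose by 1.85 ± 0.31 (adjusted p = 0.000158). Ppp1r3d fell by 0.96 ± 0.19 (adjusted p = 0.00096) at 72 h, with -0.38 ± 0.19 (adjusted p = 0.194) at 6 h and -0.13 ± 0.19 (adjusted p = 0.677) at 24 h. Ppp1r3c differed by -0.69 ± 0.35 (adjusted p = 0.203), -0.59 ± 0.35 (adjusted p = 0.241) and -0.63 ± 0.35 (adjusted p = 0.222).

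All 5 genes listed here for glycogen breakdown differed from sham at 24 h, 4 lower and 1 higher. They are not the whole of that step. Phka2, Phkb, Phkg2 and Gaa were counted among 21 further glycogen genes, of which 2 were higher and 5 lower at 24 h. Of all genes, 26.1% differed at that time. Of genes at or above the negative control level, 24.2% were higher and 20.8% lower. Phkg1, the catalytic subunit of muscle phosphorylase kinase, had 9.37, 9.52, 9.51 and 8.78 in sham hearts, 9.71, 9.21, 8.82 and 8.97 in 6 h hearts, 6.47, 6.30, 6.93 and 6.72 in 24 h hearts and 8.54, 8.83, 8.18 and 8.33 in 72 h hearts. The 24 h mean was below background, and all 24 h hearts lay below all sham hearts. Phkg1 fell by 2.69 ± 0.21 (adjusted p = 5.6e-08) at 24 h and fell by 0.82 ± 0.21 (adjusted p = 0.00868) at 72 h, with -0.12 ± 0.21 (adjusted p = 0.787) at 6 h. Phka1, the muscle regulatory subunit of the same kinase, had 11.52, 11.01, 10.98 and 9.63 in sham hearts, 10.24, 11, 10.60 and 11.24 in 6 h hearts, 9.69, 9.24, 9.18 and 9.73 in 24 h hearts and 9.34, 9.58, 9.57 and 9.29 in 72 h hearts. The 72 h hearts lay below all sham hearts, and the 24 h hearts overlapped them. Phka1 fell by 1.33 ± 0.29 (adjusted p = 0.00209) at 24 h and fell by 1.34 ± 0.29 (adjusted p = 0.0025) at 72 h, with -0.02 ± 0.29 (adjusted p = 0.983) at 6 h.

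Glycogen phosphorylase has muscle (Pygm), brain (Pygb) and liver (Pygl) forms. Pygm fell by 0.68 ± 0.16 (adjusted p = 0.0029) at 24 h, with -0.11 ± 0.16 (adjusted p = 0.722) at 6 h and -0.32 ± 0.16 (adjusted p = 0.154) at 72 h. Pygb had 14.86, 15.06, 15.07 and 15.12 in sham hearts, 14.48, 14.56, 14.20 and 14.53 in 6 h hearts, 14.23, 13.49, 13.88 and 14.43 in 24 h hearts and 15.21, 15.06, 15.10 and 14.98 in 72 h hearts. All 6 h and 24 h hearts lay below all sham hearts, and the 72 h hearts overlapped them. Pygb fell by 0.58 ± 0.17 (adjusted p = 0.0188) at 6 h and fell by 1.02 ± 0.17 (adjusted p = 0.00016) at 24 h, with 0.06 ± 0.17 (adjusted p = 0.847) at 72 h, and the 6 h call was lost without sham replicate 5 (adjusted p = 0.0503) or 6 h replicate 10 (0.0681). Pygl had 7.81, 7.41, 7.52 and 7.92 in sham hearts, 8.20, 8.05, 8.77 and 8.12 in 6 h hearts, 8.34, 8.80, 9.47 and 7.84 in 24 h hearts and 9.19, 8.99, 9.06 and 9.09 in 72 h hearts. The 6 h and 72 h hearts lay above all sham hearts, and the 24 h hearts overlapped them. Pygl rose by 0.95 ± 0.25 (adjusted p = 0.0079) at 24 h and rose by 1.42 ± 0.25 (adjusted p = 0.000365) at 72 h, with 0.62 ± 0.25 (adjusted p = 0.0962) at 6 h. White blood cells also carry Pygl. When Pygl was called, at 24 and 72 h, monocyte and macrophage markers (10 and 10 of 11) were higher than sham. Neutrophil markers (9 and 2 of 11) and fibroblast markers (4 and 8 of 8, with 1 lower at 24 h) were higher too. At 6 h, without a Pygl call, 6 of 11, 8 of 11 and 0 of 8 were higher, and 2 fibroblast markers were lower. The part of any of these cells was not tested.

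To compare forms of an enzyme, the log2 difference between another form and the main muscle or heart form was taken, the other form named first, within each array, which cancels any array-wide scale. The 11 pairs were chosen with earlier results of these data known. Each was tested at 3 times against sham by a two-sided exact permutation test over the 4 and 4 arrays, 33 tests in all. Of these, 18 were past the threshold with the first-named form gaining on the second and 1 with it losing ground. A gain is relative and need not be a rise of the first-named form. That form was not called against sham in the gains of Slc2a1, Pgam1 and Pygb at 72 h. Nor was it in those of Hk1, Hk3 and Pygl at 6 h or of Ldha at 24 and 72 h. In the other gains it was called higher. In the lactate dehydrogenase pair, the second form is that of the heart and the first that of skeletal muscle. By time, 6 pairs gained at 6, 24 and 72 h each, and the loss was at 6 h. Each of these 19 tests had the smallest p that 70 splits allow, 0.0286 (exact permutation), and 0.0496 after Benjamini-Hochberg adjustment over the 33. That adjusted value passes because 19 tests share it, and with 1 test fewer it would be 0.0524 for all of them (exact permutation). In each of the 19 the arrays did not overlap with sham, so leaving out any 1 array could not change the sign. How often pairs of unrelated genes would pass was not tested, so the count is not shown to be particular to these pairs. Single genes called against sham were 20.2%, 26.1% and 21.8% of all genes at 6, 24 and 72 h. The shares given above for hearts that do not overlap are also for single genes, not for pairs.

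**Figure D4:**
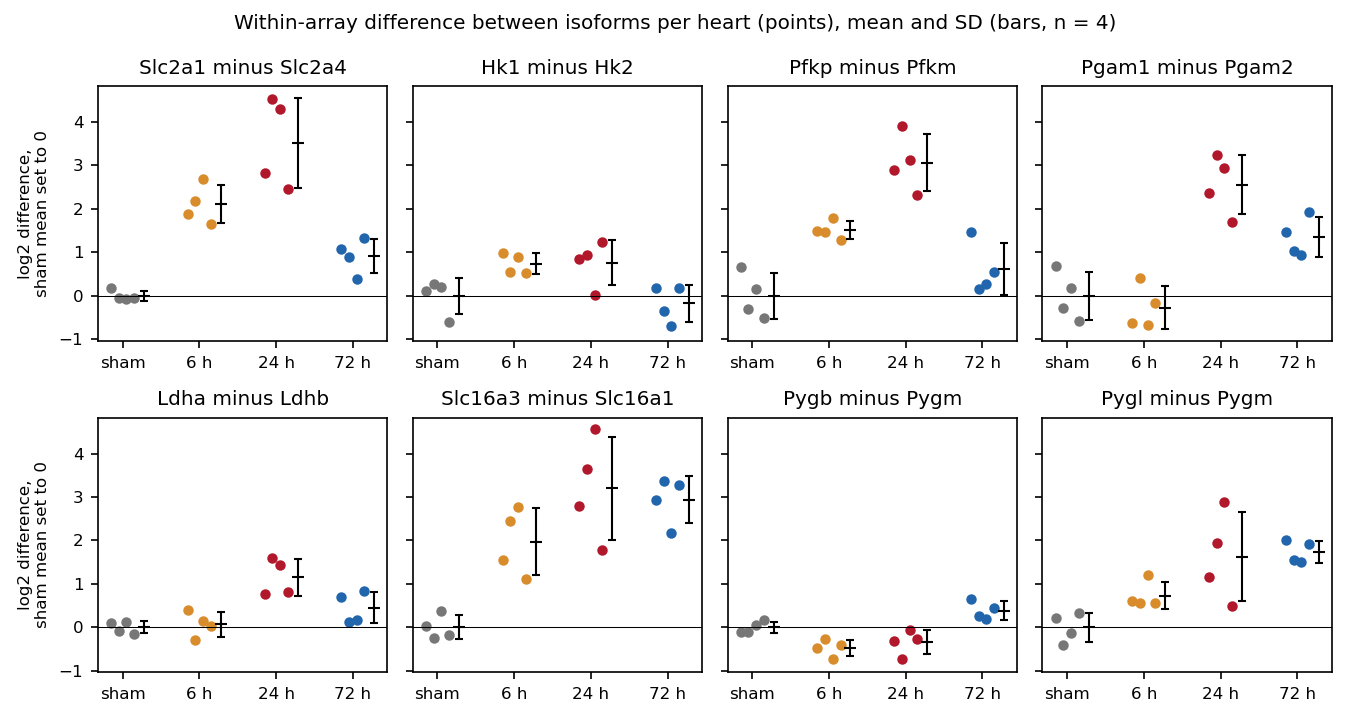
Points give, for each array, the log2 difference between the first-named and the second-named form, relative to its sham mean, for 8 of the 11 pairs in sham, 6 h, 24 h and 72 h hearts; bars beside the points give the mean and SD of 4 arrays. The Slc16a3, Pfkp, Slc2a1 and Pgam1 pairs reach the highest values. At 24 h those 4 pairs lie above all sham arrays, as do the Ldha and Pygl pairs.

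For Slc2a1 minus Slc2a4 the values, relative to the sham mean, were 0.17, -0.06, -0.08 and -0.04 in sham hearts, 1.89, 2.19, 2.68 and 1.66 in 6 h hearts, 2.82, 4.53, 4.29 and 2.45 in 24 h hearts and 1.08, 0.89, 0.39 and 1.32 in 72 h hearts. The difference was 2.10 ± 0.23, 3.52 ± 0.52 and 0.92 ± 0.21 at 6, 24 and 72 h (SE), and all 3 sets of arrays lay above sham. For Slc16a3 minus Slc16a1 the values were 0.04, -0.24, 0.38 and -0.17 in sham hearts, 1.56, 2.45, 2.78 and 1.11 in 6 h hearts, 2.79, 3.65, 4.56 and 1.79 in 24 h hearts and 2.94, 3.37, 2.17 and 3.27 in 72 h hearts. That pair differed by 1.97 ± 0.41, 3.20 ± 0.61 and 2.94 ± 0.30, again with no overlap with sham. Slc2a1 over Slc2a4, Slc16a3 over Slc16a1 and Pygl over Pygm were the 3 pairs past the threshold at every time. Pygl minus Pygm had 0.21, -0.40, -0.14 and 0.33 in sham hearts, 0.60, 0.57, 1.20 and 0.55 in 6 h hearts, 1.16, 1.95, 2.88 and 0.50 in 24 h hearts and 2.00, 1.54, 1.51 and 1.92 in 72 h hearts. It differed by 0.73 ± 0.23, 1.63 ± 0.54 and 1.74 ± 0.21.

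Pfkp minus Pfkm had 0.66, -0.30, 0.16 and -0.52 in sham hearts, 1.49, 1.48, 1.79 and 1.28 in 6 h hearts, 2.89, 3.92, 3.12 and 2.33 in 24 h hearts and 1.48, 0.16, 0.27 and 0.54 in 72 h hearts. It differed by 1.51 ± 0.28 at 6 h and 3.06 ± 0.42 at 24 h, both without overlap, and by 0.61 ± 0.40 at 72 h (exact permutation p = 0.229). Pgam1 minus Pgam2 had 0.69, -0.28, 0.17 and -0.57 in sham hearts, -0.63, 0.40, -0.68 and -0.17 in 6 h hearts, 2.37, 3.24, 2.94 and 1.69 in 24 h hearts and 1.48, 1.03, 0.94 and 1.94 in 72 h hearts. Its differences were 2.56 ± 0.44 at 24 h and 1.35 ± 0.36 at 72 h, without overlap, and -0.27 ± 0.37 at 6 h. Ldha minus Ldhb had 0.11, -0.08, 0.12 and -0.15 in sham hearts, 0.39, -0.30, 0.14 and 0.03 in 6 h hearts, 0.76, 1.59, 1.44 and 0.82 in 24 h hearts and 0.69, 0.13, 0.16 and 0.84 in 72 h hearts. This pair differed by 1.15 ± 0.22 at 24 h and 0.46 ± 0.20 at 72 h, without overlap, and by 0.07 ± 0.16 at 6 h.

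The hexokinase pairs were past the threshold at 6 h alone. Hk1 minus Hk2 had 0.12, 0.28, 0.21 and -0.61 in sham hearts, 0.98, 0.54, 0.90 and 0.52 in 6 h hearts, 0.85, 0.93, 0.02 and 1.24 in 24 h hearts and 0.18, -0.34, -0.69 and 0.17 in 72 h hearts. Hk3 minus Hk2, where Hk3 is near background, had -0.02, 0.53, -0.18 and -0.34 in sham hearts, 1.04, 0.77, 1.28 and 0.58 in 6 h hearts, 0.54, 0.38, -0.03 and 0.96 in 24 h hearts and 0.51, 0.59, 0.75 and 1.44 in 72 h hearts. They differed by 0.73 ± 0.24 and 0.92 ± 0.24 at 6 h. The brain and muscle phosphorylases were the pair that turned. Pygb minus Pygm had -0.10, -0.11, 0.05 and 0.16 in sham hearts, -0.48, -0.28, -0.73 and -0.40 in 6 h hearts, -0.31, -0.72, -0.07 and -0.27 in 24 h hearts and 0.66, 0.25, 0.18 and 0.45 in 72 h hearts. It differed by -0.47 ± 0.12 at 6 h and 0.38 ± 0.13 at 72 h, both without overlap, and by -0.34 ± 0.15 at 24 h. The remaining pairs passed at no time. Pfkl minus Pfkm had 0.43, -0.14, -0.06 and -0.23 in sham hearts, -0.41, -0.22, -0.29 and -0.20 in 6 h hearts, 0.53, 0.92, 0.87 and 0.28 in 24 h hearts and 0.55, -0.40, -0.26 and -0.02 in 72 h hearts. Aldoc minus Aldoa, with Aldoc below background, had -0.41, 0.36, -0.28 and 0.33 in sham hearts, 0.01, -0.05, 0.17 and 0.53 in 6 h hearts, 0.09, 0.22, 0.17 and 0.61 in 24 h hearts and -0.25, 0.48, 0.23 and 0.50 in 72 h hearts.

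Set against 6 h, 5 of the 35 genes were higher and 11 lower at 24 h, where 17.3% of all genes were higher and 10.9% lower, 28.2% in all. Set against 24 h, 6 were higher and 6 lower at 72 h, where 6.85% and 6.07% of all genes were, 12.9% in all. Set against 6 h, 5 were higher and 11 lower at 72 h, where 17.5% and 13.1% were, 30.6% in all. Hk1 lay above sham at 24 h and below it at 72 h, and fell by 1.33 ± 0.19 (adjusted p = 9.08e-05) between those times. Pgam1 lay below sham at 6 h and above it at 24 h, and rose by 1.93 ± 0.22 (adjusted p = 3.05e-06) between those times. These counts between times depended on the scale. Centred on the hybridization spike-ins, 17 genes were higher and 6 lower at 24 h against 6 h. At 72 h against 6 h, 21 were higher and 1 lower on that scale. The share of all genes between times was not counted on it, so these counts are not shown to be particular to the 35 genes. The hybridization spike-ins themselves lay 0.22 above sham at 6 h, and differed by -0.31 at 24 h and -0.50 at 72 h.

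The rest of the pathway, 45 of 48 further genes of transport, glycolysis, lactate and glycogen, had 2 higher and 5 lower at 6 h, 3 and 10 at 24 h, and 4 and 3 at 72 h. These are 15.6%, 28.9% and 15.6% of the 45 genes, beside 20.2%, 26.1% and 21.8% of all genes. Of the further glucose transporters, 9 were measured, with 1 lower at 6 h, 0 called at 24 h and 1 higher at 72 h. Of those 9, the raw p was below 0.05 at 24 h for 2. Emb (embigin), an ancillary protein of some monocarboxylate transporters, had a sham mean below background and rose by 2.74 ± 0.42 (adjusted p = 7.44e-05) at 6 h, rose by 4.63 ± 0.42 (adjusted p = 2.15e-07) at 24 h and rose by 4.19 ± 0.42 (adjusted p = 5.15e-07) at 72 h. Emb is also carried by white blood cells. Pgm2, a phosphoglucomutase, rose by 1.96 ± 0.25 (adjusted p = 1.16e-05) at 6 h and rose by 1.23 ± 0.25 (adjusted p = 0.00105) at 24 h. Tigar, a phosphatase that lowers fructose 2,6-bisphosphate, fell by 1.44 ± 0.22 (adjusted p = 9.01e-05) at 6 h and fell by 0.98 ± 0.22 (adjusted p = 0.00352) at 72 h. Ppp1r3a, the muscle glycogen-targeting subunit of protein phosphatase 1, fell by 1.23 ± 0.19 (adjusted p = 7.81e-05) at 24 h and fell by 0.85 ± 0.19 (adjusted p = 0.00303) at 72 h. Gaa, which clears glycogen in lysosomes, fell by 1.16 ± 0.19 (adjusted p = 0.000109) at 24 h, and Epm2a, the glycogen phosphatase laforin, fell by 1.08 ± 0.23 (adjusted p = 0.00144).

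Of 24 genes in branches off glycolysis, 20 were measured, with 4 higher and 3 lower at 6 h, 5 and 2 at 24 h, and 4 and 1 at 72 h. These are 35%, 35% and 25% of the 20, beside 20.2%, 26.1% and 21.8% of all genes. Gfpt2, which starts the hexosamine pathway, rose by 2.11 ± 0.20 (adjusted p = 2.27e-07) at 6 h. H6pd, a pentose phosphate enzyme of the endoplasmic reticulum, rose by 1.44 ± 0.20 (adjusted p = 3e-05) at 6 h, and Uap1, a later hexosamine enzyme, rose by 1.19 ± 0.21 (adjusted p = 0.000405). Ogt, which attaches the hexosamine product to proteins, fell by 0.87 ± 0.14 (adjusted p = 0.00019) at 6 h. Akr1b8, an aldo-keto reductase, rose by 3.18 ± 0.32 (adjusted p = 7.65e-07) at 24 h and rose by 3.28 ± 0.32 (adjusted p = 4.15e-07) at 72 h. Pgd, the second dehydrogenase of the pentose phosphate pathway, rose by 1.34 ± 0.18 (adjusted p = 1.32e-05) at 24 h and rose by 1.33 ± 0.18 (adjusted p = 1.55e-05) at 72 h. Gpd1l, a glycerol phosphate dehydrogenase, was the gene of these branches with the largest fall at 24 h, and fell by 0.93 ± 0.18 (adjusted p = 0.000741).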

How the data were processed

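The authors deposited 1 table of log2 expression values for 28846 probe sets on 16 arrays, made with Affymetrix Expression Console per the submitters' processing notes; no version, summarization or filter is named there. Base 2 was assumed for the logarithm. Values ran from 1.83 to 19.82, above the log2 range of a scanner, so the authors' scale may be wider than that of the raw signal. Arrays had close medians and were used as deposited. The design text names another Affymetrix array than the table's transcript cluster identifiers, and the series title lists other hours than the sample labels; identifiers and labels were followed. No batch is given. The highest correlation between 2 arrays over the genes tested was 0.990, and 0 arrays were identical.

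Names came from the annotation of the platform (19572 probe sets with 1 symbol), updated through the reference table. The probe set with the highest mean was kept for 55 genes with several, and each of the 35 genes had 1. A probe set named Eno1b, a near copy of Eno1, was not counted as that gene. Group means of all 16 arrays were fitted with limma 3.58.1 in R 4.3.3 (lmFit and eBayes, two-sided, 12 residual and 6.943 prior degrees of freedom), with Benjamini-Hochberg adjustment over 19505 genes and a threshold of 0.05. Precision is limited by 4 arrays against 4, with a median SE of 0.183. The fit was first tested on simulated data. Figures used matplotlib 3.10.9.

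The genes, the lists, the pairs of forms and the tests were chosen with earlier results of these data known. Per-array values are printed for genes called against sham with a log2 change of at least 1 and for each pair. Of the other lists (45 of 48 further pathway genes and 20 of 24 branch genes matched), up to 3 genes per direction, list and time with the largest change were named. Marker lists matched 76 of 83 genes. Alternatives were quantile normalization, centring arrays on their median, on the hybridization spike-ins or on the poly-A spike-ins, averaged probe sets, a filter on dim genes at the 25th percentile or at the negative control level, trend and robust moderation, array weights, fits of 2 groups, and leaving out each array or 24 h replicates 16 and 17. All of these were listed together with the design.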

Additional observations from a re-analysis of the deposited data

Results flagged for a closer look

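In 1 of the 140 sets of 4 arrays tested, 1 array stood far from its group: Slc2a1 in sham replicate 2 had a log2 signal of 11.59, against 11.41 to 11.43 on the other sham arrays, a gap of 0.905 of the group's range. Chance flags about 5% of such sets.

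Hk1 moved in opposite directions at neighbouring times. Its difference at 72 h against 24 h was -1.33, with 0.58 at 24 h and -0.75 at 72 h against sham, each past the threshold in limma. Pgam1 did so between the earlier times, with 1.93 at 24 h against 6 h, 1.10 at 24 h and -0.83 at 6 h against sham. The differences between times were tested in the same limma fit, with adjusted p = 9.08e-05 for Hk1 and 3.05e-06 for Pgam1. The 24 h call of Hk1 against sham was lost without any 1 of 4 arrays.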

How the results depend on the processing

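Of the 48 calls against sham, 33 held under every alternative that tested them and 15 were lost under at least 1. All 4 rises at 6 h and both at 72 h were among those that held, with 6 of 9 falls at 6 h, 6 of 8 rises and 10 of 14 falls at 24 h, and 5 of 11 falls at 72 h. Over all 6 comparisons and all alternatives, 3582 results kept their side of the threshold, 129 lost and 121 gained a call in the same direction, and 17 changed sign with a call as deposited or under the alternative. A further 175, called under neither, also changed sign and are among the 3582. Median changes of all genes were -0.26, 0.24 and 0.40 at 6, 24 and 72 h on the hybridization spike-ins and -0.37, -0.16 and 0.09 on the poly-A spike-ins, against -0.04, -0.07 and -0.09 as deposited. All genes higher and lower then numbered 975 and 3993, 4546 and 841, and 7270 and 247 on the hybridization spike-ins, 864 and 6087, 2033 and 2479, and 2752 and 590 on the poly-A spike-ins, 1640 and 2140, 2353 and 3177, and 1898 and 3532 with median centring, and 1545 and 2395, 2701 and 2392, and 2247 and 2004 as deposited. Which scale is right was not tested.

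On the hybridization spike-ins, the 35 genes were 13 higher and 5 lower at 72 h, 17 and 6 at 24 h against 6 h, 21 and 1 at 72 h against 6 h, and 3 lower at 72 h against 24 h. On the poly-A spike-ins they were 14 lower at 6 h, 4 higher and 6 lower at 72 h, 8 and 7 at 24 h against 6 h, 11 and 3 at 72 h against 24 h, and 15 and 4 at 72 h against 6 h. All genes were not counted between times on the spike-in scales, so those counts are not shown to be particular to the 35 genes. Array weights gave 4 higher at 72 h. The further pathway and branch genes together numbered 13 lower at 6 h, 17 higher and 6 lower at 24 h, and 31 and 0 at 72 h on the hybridization spike-ins, 23 lower at 6 h on the poly-A spike-ins, 5 higher and 9 lower at 72 h with median centring, and 7 lower at 72 h with quantile normalization, with the negative control filter or with array weights. As deposited, they numbered 8 lower at 6 h, 8 and 12 at 24 h, and 8 and 4 at 72 h.

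The 17 sign changes that involved a call were all on the spike-in scales. On the hybridization spike-ins, Pfkl was 0.027 at 72 h against sham, and Aldoa 0.47 and Slc16a1 0.48 at 24 h against 6 h. At 72 h against 6 h the values were 0.69 for Slc2a4, 0.13 for Hk1, 0.69 for Pgk1, 0.20 for Pgam2, 0.66 for Eno3, 0.59 for Ldha, 0.20 for Ldhb, 0.54 for Gys1, 0.50 for Pygm, 0.010 for Phkg1 and 0.13 for Ppp1r3d. On the poly-A spike-ins they were 0.50 for Pgk1, 0.012 for Pgam2 and 0.012 for Ldhb.

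With each array left out in turn, the 35 genes ranged over 4 to 5 higher and 7 to 8 lower at 6 h, 7 to 8 and 13 to 15 at 24 h, and 2 to 3 and 9 to 11 at 72 h. Between times they ranged over 4 to 6 and 9 to 12 at 24 h against 6 h, 4 to 8 and 5 to 8 at 72 h against 24 h, and 4 to 5 and 7 to 10 at 72 h against 6 h. The further genes ranged over 6 to 7 and 5 to 7, 8 to 9 and 11 to 13, and 4 to 7 and 3 to 5. Pairs of forms past the threshold ranged over 0 to 19 gaining and 0 to 2 losing. The adjusted p of 0.0496 passes only while at least 19 tests share the smallest p. Without 24 h replicates 16 and 17 the counts were 0 and 0, and could not be otherwise. The 2 arrays left at 24 h allow too few splits for a p below 0.05, whatever their values. Too few of the unchanged 6 h and 72 h tests share the smallest p to pass alone. Leaving out those 2 replicates therefore could not test the pairs. Without those replicates the 35 genes were 7 higher and 14 lower at 24 h. No paired analysis was possible because no 2 groups share a replicate number.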
